A study of Mus musculus with 19 samples.

Results

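Nearly all proteins of the mitochondrion are made in the cytosol and imported, and the genes described here encode the gates and chaperones of that import. The set holds every listed gene whose symbol starts with Timm (translocase of the inner membrane) or Tomm (translocase of the outer membrane), leaving out pseudogenes and opposite-strand transcripts, which gave 25 of 14173 genes. They were measured as polyadenylated RNA in single mouse blastocysts, with 1 library per embryo. The Padi6-mutant group held 9 embryos and the Control group 10. Per the series' design text, the mutant embryos came from oocytes carrying the P620A change in Padi6, a protein of the oocyte cytoplasm, so the group is defined by the mother's allele. Strain, litter and age are not given in the sources used here, and the p-values below take embryos as independent. The labels describe a 72 h culture for outgrowth, without saying whether the sequenced embryos passed through it. Because whole blastocysts were lysed, fewer cells of a type and less RNA per cell cannot be told apart.

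Proteins enter through the TOM complex, whose channel is Tomm40 and whose receptors Tomm20, Tomm22 and Tomm70a (the symbol in the table for Tomm70) bind their targeting signals. Small TOM subunits such as Tomm5 and Tomm7 stabilize that complex. In the space between the membranes, hexamers of small TIMM proteins (Timm9 with Timm10, and Timm8 proteins with Timm13) chaperone hydrophobic clients towards the TIM22 complex, which inserts metabolite carriers. Proteins with a presequence pass instead through the TIM23 complex, formed by Timm23, Timm17a or Timm17b, Timm50 and Timm21, and are pulled in by a motor that Timm44 anchors. The blastocyst has parted into inner cell mass and trophectoderm and depends on mitochondrial respiration.

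Values are log2(scaled count + 1), and differences are log2 fold changes of Padi6-mutant over Control from limma, with p-values adjusted by Benjamini-Hochberg over all 14173 genes and a threshold of 0.05. Of the 25 genes, 13 rose in Padi6-mutant embryos, 1 fell and 11 did not pass. Across all genes 14.6% rose and 12.0% fell (26.6% in either direction), with a median log2 fold change of -0.10 against 0.78 in the import genes. Mutant libraries 6, 8, 9 and 10 each had over 400 genes at 0 and are called the 4 sparse libraries below. With these left out, 9 rose and 1 fell, where 11.9% and 6.64% of all genes did. When the count of detected genes entered the model as a covariate, 9 rose and 0 fell, against 9.23% and 3.52% of all genes. None of the 25 genes was at 0 in any library. Tomm20l ran from 1.00 to 5.43 in Controls and from 4.17 to 6.63 in mutants. Whether a listing cutoff above 0 was passed through the higher group alone was not tested.

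Some properties of the libraries moved with genotype. Between 113 and 596 listed genes were at 0 in the mutant libraries and between 30 and 247 in the Control libraries. Each library's deviation from the mean of every gene was set against transcript length, and the Spearman's rho across genes ran from -0.42 to -0.09 in mutants and from -0.12 to 0.40 in Controls, with the lowest Control values in embryos 5 (-0.12) and 9 (-0.11). The 18S ribosomal RNA took 3.16 to 7.35% of scaled counts in mutants and 4.05 to 18.4% in Controls. Of these, genes at 0 were addressed by the covariate and by leaving out the 4 sparse libraries, and length trends were removed as described further on. Beyond that, the part of these properties in the results below was not tested. All 6 trophectoderm, 6 inner cell mass and 5 primitive endoderm markers on the lists were measured. The inner cell mass list took 0.0286 to 0.0779% of scaled counts in mutants and 0.0514 to 0.143% in Controls, with 3 of 6 members lower. The primitive endoderm list took 0.0503 to 0.0766% and 0.0491 to 0.138%, with 3 of 5 lower. The trophectoderm list took 0.194 to 1.10% and 0.460 to 0.994%, with 0 of 6 called. None of the 7 cumulus and granulosa or 6 oocyte markers is among the listed genes. Padi6 itself was at 6.49 ± 2.16 in mutants (SD, n = 9) and 6.53 ± 1.503 in Controls (SD, n = 10; log2 fold change -0.04, limma adjusted p = 0.976), and the level of a transcript is no check of a single amino acid change in the mother.

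Of the 7 small TIMM chaperones, 5 rose and 0 fell, with a median log2 fold change of 0.96. All 7 have a coding length of up to 300 nt. In that class 68.5% of all 232 genes rose and 0.431% fell, with a median of 1.81. Timm8b, which can take the place of Timm8a1 beside Timm13, ran from 8.48 through a median of 9.63 to 11.23 in Control embryos and from 11.26 through 12.46 to 13.10 in mutants. The groups did not overlap, with mutant 10 lowest in its group and Control 5 highest. The log2 fold change was 2.62 (SE 0.32, limma adjusted p = 2.13e-06), a 6.15-fold difference on this scale. Of its exon bases 15.6% overlap the opposite-strand gene Nkapd1 in GENCODE M21, and reads of the 2 genes cannot be told apart there without strand. Timm13, its partner in the hexamer, ran from 10.86 through 11.73 to 13.05 in Controls and from 13.35 through 13.61 to 14.28 in mutants. These groups did not overlap either, and the rise was 1.86 (SE 0.24, limma adjusted p = 5.83e-06). Such complete separation upwards was found for 3 of the 25 genes and for 2.67% of all genes. All 3 have up to 300 coding nt. In that class 63 of all 232 genes separated upwards, against 3 of 9 import genes.

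Timm10, partner of Timm9 in the main carrier chaperone, ran from 9.18 through 10.05 to 11.93 in Controls and from 11.76 through 12.41 to 13.38 in mutants. Control 9 alone reached into the mutant range, and 7 of 9 mutant embryos lay above it. Timm10 rose by 2.21 (SE 0.29, limma adjusted p = 7.09e-06). Timm9 ran from 9.07 through 10.10 to 11.31 in Controls and from 10.62 through 11.24 to 11.61 in mutants, a rise of 0.96 (SE 0.23, limma adjusted p = 0.00367). Controls 5 and 9 lay within the mutant range of Timm9. The intervals of these rises, 1.60 to 2.82 for Timm10 and 0.48 to 1.44 for Timm9 at 95%, do not overlap, although the subunits share a complex. The difference between the 2 genes was not tested.

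Timm8a1, the X-linked chaperone whose human counterpart is mutated in deafness-dystonia syndrome, ran from 9.39 through 10.16 to 11.31 in Controls and from 10.43 through 10.84 to 11.99 in mutants. It rose by 0.78 (SE 0.26, limma adjusted p = 0.0306), with all 9 mutants above the Control median but 2 above the highest Control. That call ended without the 4 sparse libraries (0.73, adjusted p = 0.103), with the detected-gene covariate (0.55, adjusted p = 0.276) and on leaving out Control 1, 2, 3 or 8 or mutant 3 or 6 (highest adjusted p = 0.0615). Timm8a2, a close relative of Timm8a1, ran from 6.44 through 8.11 to 10.29 in Controls and from 7.16 through 8.02 to 9.91 in mutants, and its value of 0.12 did not pass (adjusted p = 0.882, 95% interval -0.90 to 1.14). Reads of such near copies may have been split between them, and the counting tool is not given in the sources used here. Timm10b, which ties the chaperones to the TIM22 complex, did not pass (0.96, SE 0.40, limma adjusted p = 0.0757) and passed when no intensity trend was fitted (adjusted p = 0.0448).

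Promoters of the 3 small TIMM genes with the largest rises and of Timm8a2, which did not pass, are shown so that the genes can be compared at their start sites. They are RefSeq windows of 300 bases, 250 before to 50 after the start, on GRCm38.p6, an older build than the GRCm39 of the files, and capitals mark CCGGAAGT on either strand, the core to which the ETS factor GABPA, a regulator of respiratory genes, is known to bind. The windows are chr9:50603651-50603950 (plus strand) for Timm8b, chr2:84826771-84827070 (plus) for Timm10, chr10:80900920-80901219 (minus) for Timm13 and chr14:122034424-122034723 (plus) for Timm8a2.
Timm8b: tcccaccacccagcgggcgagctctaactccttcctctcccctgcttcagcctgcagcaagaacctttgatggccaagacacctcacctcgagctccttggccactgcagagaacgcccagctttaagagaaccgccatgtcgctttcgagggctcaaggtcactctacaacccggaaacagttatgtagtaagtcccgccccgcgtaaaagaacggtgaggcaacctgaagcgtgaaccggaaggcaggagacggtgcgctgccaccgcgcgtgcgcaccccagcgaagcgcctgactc
Timm10: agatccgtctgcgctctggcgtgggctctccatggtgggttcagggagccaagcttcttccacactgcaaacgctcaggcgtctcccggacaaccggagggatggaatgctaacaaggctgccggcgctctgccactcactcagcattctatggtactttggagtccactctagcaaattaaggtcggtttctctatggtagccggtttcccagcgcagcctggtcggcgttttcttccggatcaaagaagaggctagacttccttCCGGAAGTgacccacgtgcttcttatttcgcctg
Timm13: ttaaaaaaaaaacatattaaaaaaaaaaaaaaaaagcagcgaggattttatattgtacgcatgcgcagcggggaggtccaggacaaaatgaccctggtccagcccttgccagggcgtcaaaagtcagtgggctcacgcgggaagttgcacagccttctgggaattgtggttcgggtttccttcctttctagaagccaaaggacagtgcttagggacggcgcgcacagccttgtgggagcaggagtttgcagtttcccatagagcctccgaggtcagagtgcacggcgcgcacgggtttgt
Timm8a2: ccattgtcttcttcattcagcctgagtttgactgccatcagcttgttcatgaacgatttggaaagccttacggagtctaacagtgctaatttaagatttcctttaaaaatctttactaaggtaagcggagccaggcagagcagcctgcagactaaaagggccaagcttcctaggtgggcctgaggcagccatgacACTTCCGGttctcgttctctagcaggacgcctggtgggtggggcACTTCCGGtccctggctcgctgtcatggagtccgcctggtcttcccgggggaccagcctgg
The motif occurs once in the Timm10 window and 2 times in that of Timm8a2, and the other windows shown do not hold these letters. Of 22 import genes with a promoter in the table (Tomm7, Tomm40l and Timm21 had none), 7 (31.8%) held CCGGAAGT in at least 1 window, against 4.31% of all 27025 genes with a promoter and 9.83% of the 9575 that are also among the measured genes. It was found in 2 of the 12 genes that rose (Timm10 and Timmdc1) and in 5 of the 10 others (Timm10b, Timm23, Timm29, Timm8a2 and Tomm70a). A motif bound by NRF1 was in 0 of 22, against 1.07% of all genes and 2.36% of the measured ones. A motif bound by YY1 was in 1 of 22, Timm50, against 0.755% and 1.91%. Both strands were searched, and no 2 motifs overlapped in a member's window.

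Both measured small TOM subunits rose, and Tomm6 was not analysed here. Tomm5 and Tomm7 have 153 and 165 coding nt, in the class where 68.5% of all genes rose. Tomm7, a small subunit of the TOM complex also known for holding the kinase PINK1 at the outer membrane, ran from 9.66 through 10.70 to 12.25 in Controls and from 12.52 through 13.72 to 14.25 in mutants. The groups did not overlap, and the rise of 2.90 (SE 0.29, limma adjusted p = 1.99e-07) was the largest of the 25 genes, a 7.44-fold difference on this scale. Tomm5 ran from 9.88 through 10.73 to 12.64 in Controls and from 12.56 through 13.31 to 14.52 in mutants, with Control 9 inside the mutant range. It rose by 2.18 (SE 0.335, limma adjusted p = 4.47e-05).

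**Figure D1:**
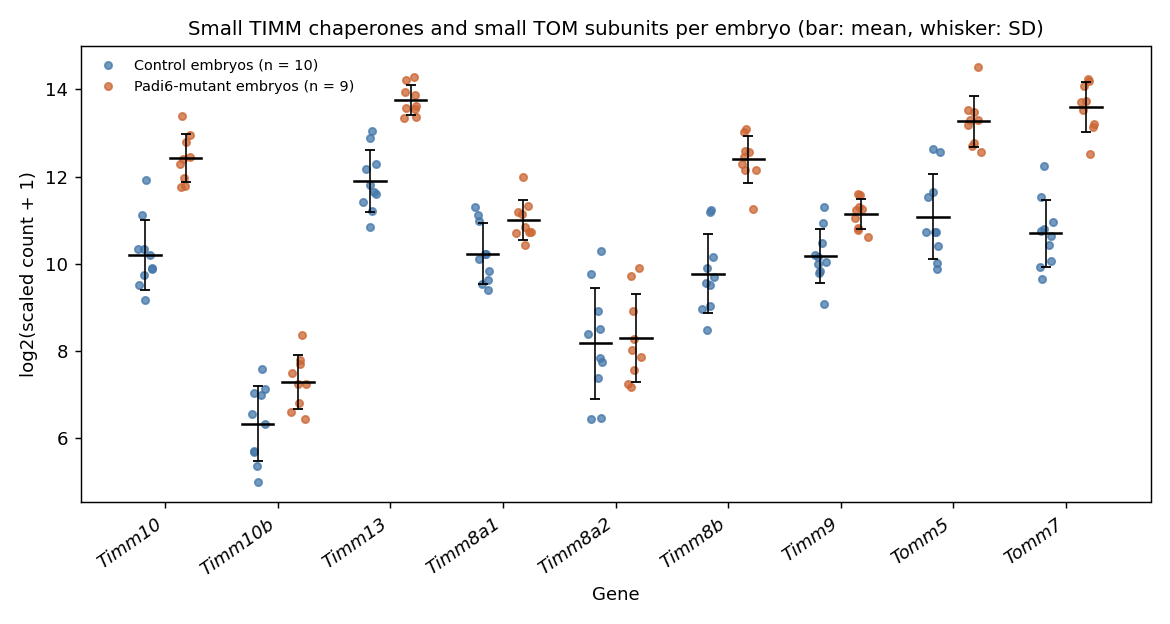
Level of each small TIMM chaperone and small TOM subunit as log2(scaled count + 1) on the vertical axis, with 1 point per embryo, blue for Control (n = 10) and orange for Padi6-mutant (n = 9), a bar at the mean and whiskers of 1 SD. Timm8b, Timm13 and Tomm7 show no overlap between the groups, and Timm8a2 lies at 8.17 in Controls and 8.29 in mutants.

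Of the 4 TOM receptor genes 3 rose, 0 fell and Tomm70a did not pass. The 3 that rose have 426 to 456 coding nt, in the class where 48.8% of all genes rose. Tomm70a has 1833 coding nt, in the class where 3.21% rose. Tomm20, the presequence receptor, ran from 11.82 through 12.82 to 14.57 in Controls and from 13.38 through 14.01 to 15.71 in mutants, a rise of 1.06 (SE 0.34, limma adjusted p = 0.0235). Only mutant 6 lay above the highest Control embryo. Tomm22, the central receptor, rose by 0.74 (SE 0.23, limma adjusted p = 0.0180), from a Control median of 12.60 (11.68 to 13.50) to 13.46 (12.70 to 14.23). With the detected-gene covariate the calls of Tomm20 (0.71, adjusted p = 0.273) and Tomm22 (0.56, adjusted p = 0.192) ended, as they did without the 4 sparse libraries (0.98, adjusted p = 0.0778, and 0.72, adjusted p = 0.0690). Tomm70a, the receptor for carriers and other internal signals, did not pass at 0.09 (SE 0.155, adjusted p = 0.700), with an interval of -0.23 to 0.41 at 95%. Its levels were the least spread of the receptors, 13.51 ± 0.37 in Controls (SD, n = 10) and 13.60 ± 0.24 in mutants (SD, n = 9).

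Tomm20l, a relative of Tomm20, was the lowest of the 25 genes per transcript length in Controls, at 21.6 ± 25.3 scaled counts per kb in Controls (SD, n = 10) and 89.4 ± 42.3 in mutants (SD, n = 9), where Tomm40l was lower (31.8 ± 20.7). On the log2 scale it ran from 1.00 through 2.81 to 5.43 in Controls and from 4.17 through 5.88 to 6.63 in mutants, with 3 Control embryos inside the mutant range. Its rise of 2.50 (SE 0.65, limma adjusted p = 0.00612) became 1.56 (adjusted p = 0.00353) with a pseudocount of 10. It did not pass without the 4 sparse libraries (2.33, adjusted p = 0.0560) or with the detected-gene covariate (2.06, adjusted p = 0.0916). Exons of Tomm20l and Timm9 overlap by 49 bases on opposite strands in GENCODE M21, and the library protocol in the labels names no strand marking.

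Neither channel gene of the outer membrane passed. Tomm40 ran from 11.85 through 13.23 to 14.11 in Controls and from 11.68 through 12.62 to 13.36 in mutants, with a value of -0.59 (SE 0.28, adjusted p = 0.123), and 1 mutant embryo of 9 lay above the Control median. Its relative Tomm40l had -0.90 (SE 0.61, adjusted p = 0.282), with levels from 3.32 to 8.56 in Controls and from 4.09 to 7.46 in mutants. Without Control 9, in which Tomm40l had its lowest value, Tomm40 (-0.74, adjusted p = 0.0352) and Tomm40l (-1.31, adjusted p = 0.0460) were called lower. Of the annotated exon bases of Tomm40l, 64.3% overlap the opposite-strand gene Nr1i3, so its reads cannot be assigned with certainty.

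In the TIM23 complex 2 of 5 genes rose. These were Timm17a and Timm17b, with 513 and 516 coding nt, in the class where 48.8% of all genes rose. Timm23 and Timm21 have 627 and 732 coding nt, where 18.5% rose, and Timm50 has 1059 nt, where 3.21% rose. Timm17a, a pore-forming subunit whose protein is known to be unstable under stress, ran from 11.25 through 12.28 to 13.69 in Controls and from 12.83 through 13.77 to 14.36 in mutants. It rose by 1.32 (SE 0.27, limma adjusted p = 0.00107), and 5 of 9 mutants lay above the highest Control embryo. Timm17b, its X-linked paralog, rose by 1.05 (SE 0.26, limma adjusted p = 0.00455), from 11.11 ± 0.77 (SD, n = 10) to 12.17 ± 0.36 (SD, n = 9). Timm23, which shares the pore with them, did not pass at 0.51 (SE 0.22, adjusted p = 0.0909), although it did without Control 5 (0.60, adjusted p = 0.0409). It had the highest mean level per transcript length of the 25 genes, with 12280 ± 4671 scaled counts per kb in Controls (SD, n = 10) and 16850 ± 5165 in mutants (SD, n = 9). Timm50, the receptor that hands presequence proteins to the pore, had 0.26 (SE 0.20, adjusted p = 0.368), and Timm21, which links the complex to TOM, had -0.04 (SE 0.29, adjusted p = 0.939). Their intervals at 95% were -0.16 to 0.68 and -0.63 to 0.56.

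The TIM22 complex showed no call. Timm22, its channel, ran from 11.01 through 11.60 to 12.32 in Controls and from 11.21 through 12.02 to 12.31 in mutants (0.15, SE 0.20, adjusted p = 0.608). Timm29, which stabilizes the complex, was below the Control median in all 9 mutants without passing (-0.66, SE 0.28, adjusted p = 0.0876), and it was called lower without Control 5 (-0.81, adjusted p = 0.0197) and without the 4 sparse libraries (-0.95, adjusted p = 0.0445). The channel that receives the carriers had 0.15, beside values of 0.12 to 2.62 for the chaperones that deliver them.

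**Figure D2:**
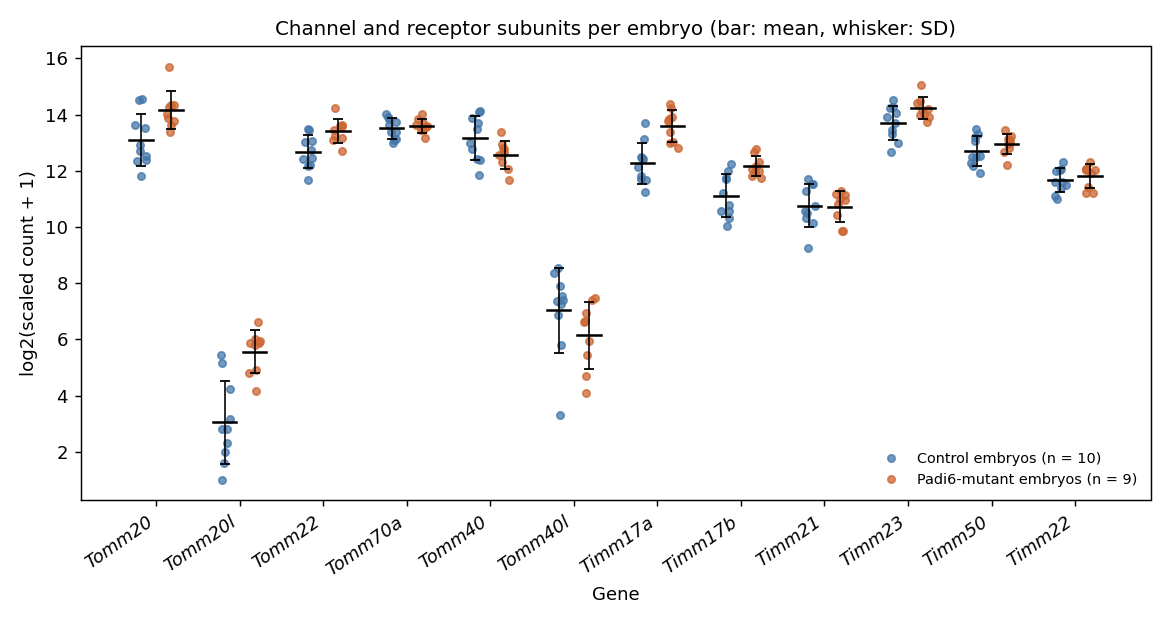
Level of the 12 channel and receptor subunits as log2(scaled count + 1) on the vertical axis, with 1 point per embryo, blue for Control (n = 10) and orange for Padi6-mutant (n = 9), a bar at the mean and whiskers of 1 SD. Groups overlap in every gene shown, and Tomm40l has 1 Control embryo at 3.32, far below the others.

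Of the 3 remaining genes, Timmdc1, a membrane factor known for the assembly of respiratory complex I, rose by 0.88 (SE 0.19, limma adjusted p = 0.00152). It ran from 9.39 through 9.72 to 10.45 in Controls and from 10.06 through 10.68 to 11.47 in mutants, and 8 of 9 mutants lay above the highest Control. Tomm34, a cytosolic cochaperone of import precursors, was the single lower gene and fell by 1.19 on the log2 scale (SE 0.29, limma adjusted p = 0.00402). It ran from 8.78 through 9.87 to 10.99 in Controls and from 7.48 through 8.71 to 9.44 in mutants, with all 9 mutants below the Control median. Its call ended with the detected-gene covariate (-0.82, adjusted p = 0.119) and without the 4 sparse libraries (-0.92, adjusted p = 0.0531). Timm44, the anchor of the import motor, did not pass (-0.17, SE 0.15, adjusted p = 0.407), with levels of 12.12 ± 0.35 in Controls (SD, n = 10) and 11.95 ± 0.17 in mutants (SD, n = 9).

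Levels were also set side by side per transcript length. Among Control embryos the highest means after Timm23 belonged to Tomm40 (6632 ± 3308 scaled counts per kb, SD, n = 10), Timm50 (4650 ± 1726) and Tomm22 (4479 ± 1801), and each of these differs from the next by less than the larger SD of the pair. Among mutants, Tomm5 (16740 ± 8222 scaled counts per kb, SD, n = 9), Tomm7 (11740 ± 4151), Timm13 (11540 ± 2849), Timm8b (11020 ± 3746) and Timm10 (10390 ± 4171) followed Timm23, and each gene in this order, Timm23 included, differs from the next by less than the larger SD of the pair. Tomm40 stood at 4076 ± 1362 in the mutants. These levels rest on 1 annotated transcript per gene. Together the 25 genes took 0.289 to 0.501% of the scaled counts in mutants and 0.167 to 0.2995% in Controls.

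Small TIMM chaperones were then set against the 12 channel and receptor subunits (4 TOM receptors, 2 TOM channel genes, 5 TIM23 subunits and Timm22). Of the small TIMM genes 5 of 7 rose, and of the channel and receptor genes 5 of 12 rose and 0 fell. Their median log2 fold changes were 0.96 and 0.38. The 2 sets differ in coding length. All 7 small TIMM genes have up to 300 coding nt, where 68.5% of all genes rose. Channel and receptor genes have 426 to 1833 coding nt. In those longer classes, listed further on, smaller shares of all genes rose, down to 3.21% over 1000 nt. Per embryo, the mean of the small TIMM genes minus that of the channel and receptor genes was -1.69 ± 0.37 in Controls (SD, n = 10; -2.14 to -0.88) and -0.84 ± 0.33 in mutants (SD, n = 9; -1.35 to -0.34). The difference of 0.85 is a description without a test, since the genes were chosen with results of these data known. The groups overlap, because Control 9 (-0.88) and Control 5 (-1.28) lie within the mutant range. Among mutants, embryo 6 had the highest small TIMM mean (11.78) and embryo 10 the lowest (10.36).

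**Figure D3:**
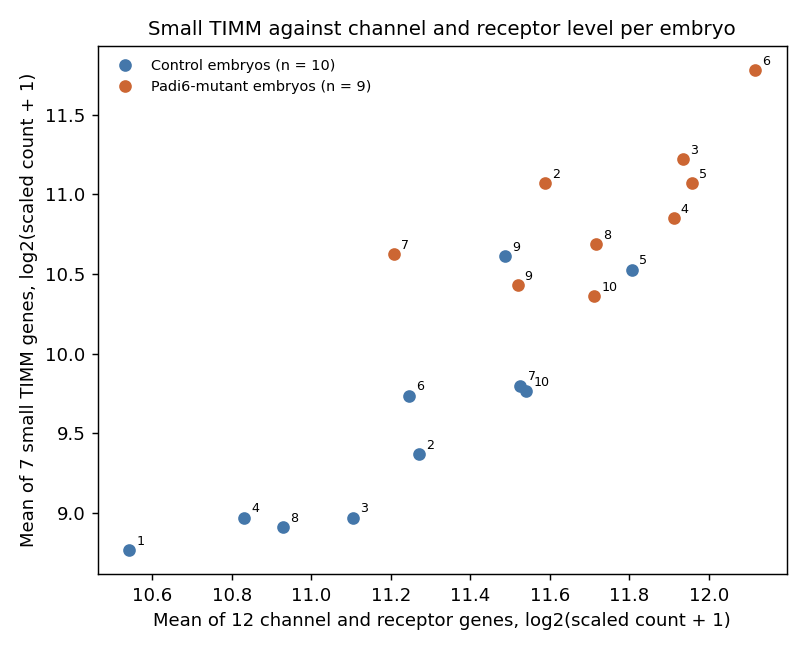
Mean of the 7 small TIMM genes (vertical axis) against the mean of the 12 channel and receptor genes (horizontal axis), both in log2(scaled count + 1), with 1 point per embryo labelled by its number, blue for Control and orange for Padi6-mutant. Control embryos 5 and 9 lie among the mutant embryos, at small TIMM means of 10.53 and 10.61.

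The same Control embryos stood out across the set. Control 5 was among the highest 2 Controls in 15 of the 25 genes and in 11 of the 13 that rose, and Control 9 in 13 and 11. These are the 2 Control libraries with a negative rho of transcript length. Control 1, with the highest rho (0.40), was the lowest Control in 14 of the 25 genes and in 5 of the 7 small TIMM genes. Mutant 6 was the highest mutant in 15 of the 25 genes, and mutants 9 and 10 were each the lowest in 7.

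Fold changes followed coding length. Across the 25 genes, the Spearman's rho of log2 fold change was -0.78 with coding length and -0.57 with annotated transcript length, where genes share libraries and are no independent replicates. Across 10982 genes with a coding sequence these values were -0.41 and -0.33. All 9 small TIMM and small TOM genes have a coding length of up to 300 nt, from 153 nt in Tomm5 to 300 nt in Timm10b. In that class 68.5% of all 232 genes rose and 0.431% fell, with a median log2 fold change of 1.81, against 7 of 9 and 1.86 for the import genes. Over 300 and up to 600 nt 48.8% of 1208 genes rose and 2.24% fell, with a median of 0.78, against 5 of 6 import genes and 1.05. Over 600 and up to 1000 nt 18.5% of genes rose and 6.39% fell, against 1 and 1 of 6 import genes. Over 1000 nt 3.21% rose and 18.8% fell, against 0 and 0 of 4. Of 1978 genes with an annotated transcript of up to 1000 nt 49.1% rose and 1.72% fell, against 5 and 0 of 7 import genes. Tomm20, with an annotated transcript of 4902 nt, and Timm17a, with 7280 nt, rose with long transcripts, and their coding lengths are 435 and 513 nt.

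**Figure D4:**
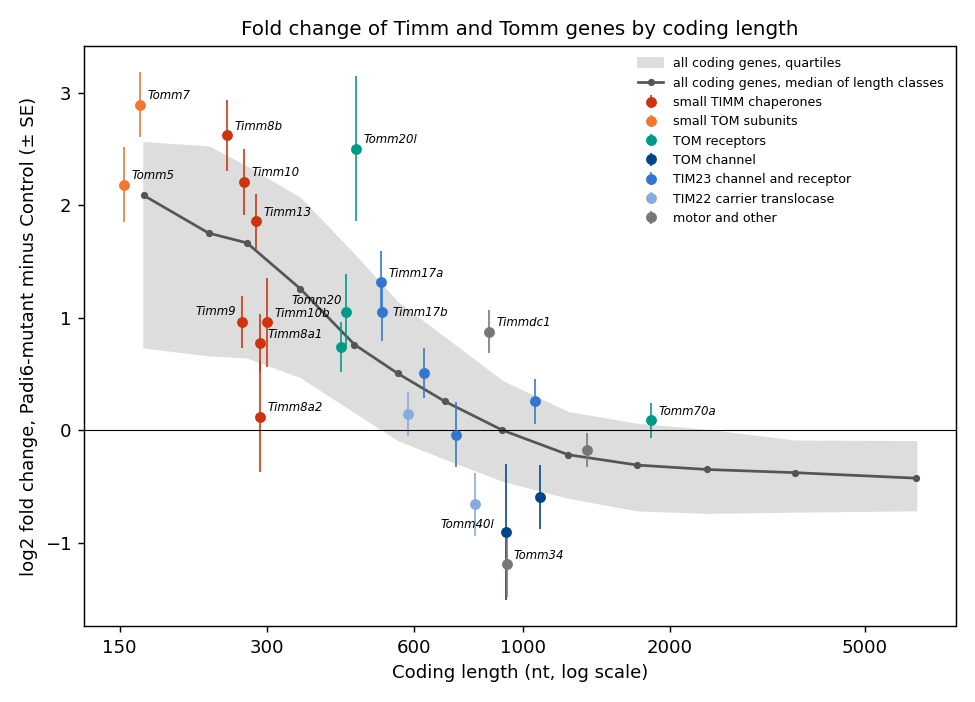
Log2 fold change of each import gene (vertical axis, whiskers of 1 SE) against its coding length in nt (horizontal log axis), coloured by role, with the median of all coding genes in length classes (line) and their quartiles (grey). Timm8b, Timm10 and Timm13 lie above the line, and Timm9, Timm8a1, Timm8a2 and Timm10b below it. Genes beneath the quartiles include Tomm34 (-1.19), Tomm40l (-0.90), Timm29 (-0.66) and Timm8a2 (0.12).

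Removal of length trends changed which genes were called. After each library's trend on transcript length and GC content was taken out, 11 of the 25 genes were higher, 10 of them among the 13, and Tomm34 was lower, where 10.6% of all genes were higher and 10.2% lower. Timm8b then stood at 1.12, Timm10 at 0.95, Timm13 at 1.70 and Tomm7 at 2.16, while the calls of Timm8a1 (0.52, adjusted p = 0.0926), Tomm20l (1.17, adjusted p = 0.130) and Timm9 (-0.25, adjusted p = 0.179) ended and Timm50 was called (0.41, adjusted p = 0.0186). After the trend on coding length and GC content was taken out, 6 were higher and 6 lower, where 11.0% of all genes were higher and 11.0% lower. Those higher were Timm8b (0.86, adjusted p = 2.39e-04), Timm10 (0.67), Timm13 (0.47), Tomm7 (0.47), Timmdc1 (0.80) and Timm50 (0.53). Those lower were Timm8a1 (-0.81, adjusted p = 8.97e-04), Timm9 (-0.74, adjusted p = 4.97e-04), Timm8a2 (-1.34), Tomm22 (-0.40), Timm22 (-0.43) and Tomm34 (-1.09). Relative to other genes of their coding length, the small TIMM genes thus divided into 3 higher, 3 lower and Timm10b, which did not pass (-0.44, adjusted p = 0.486). The calls of Tomm5 (-0.23, adjusted p = 0.251), Tomm20 (-0.07, adjusted p = 0.837), Timm17a (0.40, adjusted p = 0.103), Timm17b (0.35, adjusted p = 0.138) and Tomm20l (1.62, adjusted p = 0.101) ended. The difference of small TIMM and channel means between genotypes, 0.85 as deposited, was 0.02 after the first removal and -0.24 after the second. Timm8b, Timm10, Timm13, Tomm7, Timmdc1 and Tomm34 kept their calls and their directions under both removals.

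**Figure D5:**
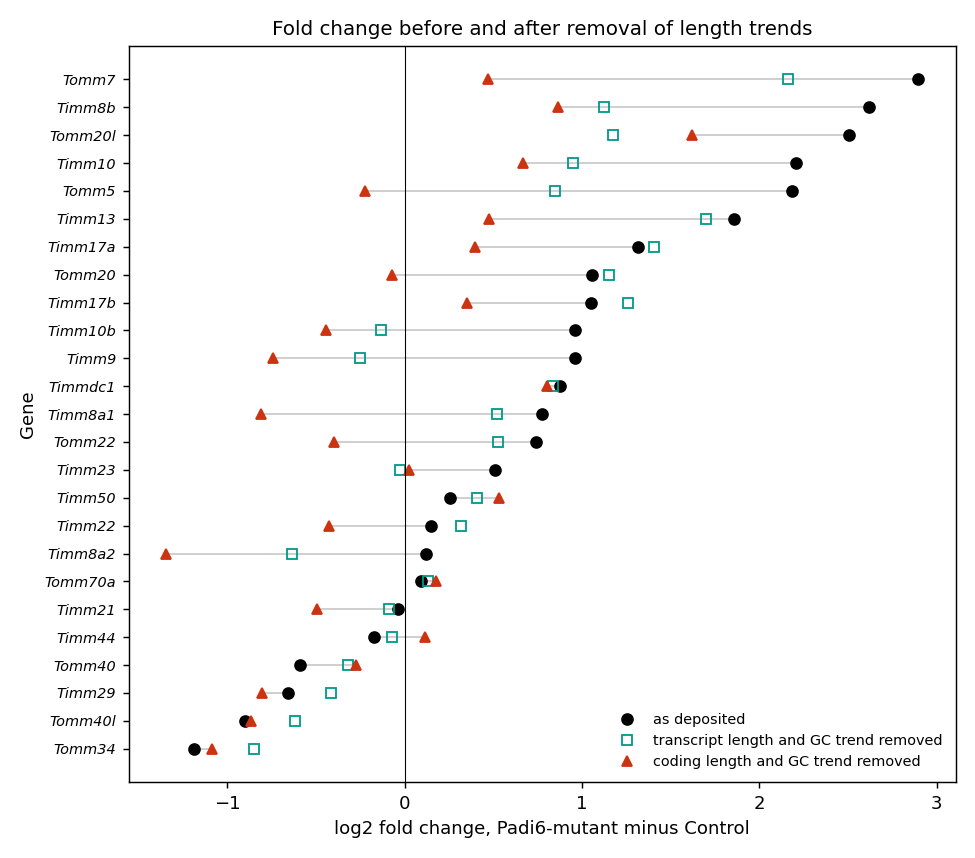
Log2 fold change of the 25 genes (horizontal axis, Padi6-mutant minus Control) as deposited (black circles), after removal of the transcript length and GC trend (open squares) and after removal of the coding length and GC trend (red triangles), ordered by the deposited value. Timm9 and Timm8a1 move from 0.96 and 0.78 to -0.74 and -0.81, and Timmdc1 stays between 0.80 and 0.88.

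Head-to-head neighbours were 5, of which 0 rose and 1 fell, where 14.6% and 12.0% of all genes did. Timm8b stands head to head with Sdhd, a membrane subunit of succinate dehydrogenase, whose value was 0.40 (SE 0.19, adjusted p = 0.123) beside 2.62. Timm17b faces Pqbp1, a splicing factor (0.20, adjusted p = 0.680). Timm23 (0.51) faces Parg, which degrades poly(ADP-ribose) and fell by 0.71 (SE 0.17, limma adjusted p = 0.00402). Timm29 (-0.66) and its neighbour Yipf2 (-0.46, adjusted p = 0.163) did not pass, nor did 2700049A03Rik (-0.13, adjusted p = 0.703) beside Timm9.

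Other genes of mitochondrial import, on a list of 28, were 11 higher (39.3%) and 3 lower (10.7%), beside 14.6% and 12.0% of all genes, with a median of 0.10. In the motor of the TIM23 complex 5 of 7 rose and 1 fell. Dnajc19, its J-protein, rose by 3.13 (SE 0.30, limma adjusted p = 1.55e-07) and Romo1, a small subunit beside the pore, by 2.33 (SE 0.27, limma adjusted p = 1.39e-06), without overlap of groups in either. Their coding lengths are 348 and 237 nt, in the classes where 48.8% and 68.5% of all genes rose. In those classes 127 of 1208 and 63 of 232 genes separated upwards without overlap. Hspa9, the motor's Hsp70, fell by 0.40 (adjusted p = 0.0325) and was chosen after its values were seen. Both genes of the disulfide relay that folds the small TIMM proteins rose, the oxidoreductase Chchd4 by 0.50 (adjusted p = 0.0203) and its oxidase Gfer by 0.95 (adjusted p = 0.00379). With the coding length trend removed Chchd4 was called lower instead (-0.66, adjusted p = 0.00194). In the sorting and assembly machinery of the outer membrane 2 of 5 genes rose and 1 fell. Mtx2 rose by 0.60 (adjusted p = 0.0245), Mtx1 likewise by 0.60 (adjusted p = 0.0307), and the channel Samm50 fell by 1.11 (adjusted p = 0.0277). Of 6 processing peptidases only Immp1l, of the inner membrane, rose (2.15, adjusted p = 3.48e-05), and Pmpca, of the matrix processing peptidase, had -0.41 (adjusted p = 0.0779). The matrix chaperonin had its small partner Hspe1, of 306 coding nt, higher (2.03, adjusted p = 2.38e-05) and its large subunit Hspd1 lower (-0.61, adjusted p = 0.00139). Of 5 other insertases 0 passed, with Agk at -0.30 (adjusted p = 0.269) and Oxa1l at -0.22 (adjusted p = 0.483). Among 7 metabolite carriers, clients of the small TIMM chaperones, the ADP/ATP carrier Slc25a5 rose by 0.64 (adjusted p = 0.0212), the citrate carrier Slc25a1 fell by 1.58 (adjusted p = 0.00959), and 5 did not pass. With the detected-gene covariate, Mtx2 (adjusted p = 0.174), Samm50 (0.150), Chchd4 (0.117), Slc25a5 (0.112) and Slc25a1 (0.195) were no longer called, and without the 4 sparse libraries Mtx2 (0.105), Slc25a5 (0.0681) and Slc25a1 (0.111) were not. Samm50 was not called on leaving out Control 2, 3 or 7 or mutant 4 (highest adjusted p = 0.0556), and quantile normalization moved Slc25a5 to 0.17 (adjusted p = 0.535).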

How the data were processed

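The deposited table holds log2 values for 14173 genes in 19 libraries, read per the file header as library columns. Per the submitters' processing notes, the tools were HISAT2 2.1.0 and Trim Galore 0.4.4, with builds GRCm39 and mm39. The counting tool and annotation are not given in the sources used here. Taken back from the log2 scale, the values were within 1.96e-07 of whole numbers, and the upper quartile over listed genes was 2322 in all libraries, so the authors' values were read as log2(scaled count + 1). All listed genes had values above 0 in 9 or more libraries. The labels give a mean depth of 4.2 M reads, and depth per library was not taken from the scaled values.

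Groups were compared with limma 3.58.1 in R 4.3.3 (lmFit and eBayes with an intensity trend, two-sided) over all genes, with no filter, which was tested on simulated data. Noise in the simulated data was independent between genes and held no length trend, so they cannot vouch for calls under such a trend. Members and lists were chosen with earlier results of these data known, so lists have counts and medians but no test. Named genes were all 25 members, Padi6, the up to 2 with the smallest adjusted p in each of 6 groups of other import genes, and 2 carriers. Lengths and GC content came by symbol from GENCODE M21 (shortest principal transcript) for 13357 genes (94.2%), and coding lengths for 10982. Trends were removed by lowess (span 0.3) per library. Head-to-head neighbours had a start within 1000 nt upstream or 200.0 nt into the gene. Alternatives were a replicate block, a pseudocount of 10, quantile normalization, no intensity trend, genes above the median level, detected genes as a covariate, a threshold of 0.01, group medians and left-out libraries, and the coding-length trend was chosen after seeing the data.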

Additional observations from a re-analysis of the deposited data

Results flagged for a closer look

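Of 52 groups of values examined (25 genes and the score of small TIMM minus channel genes, in each genotype), 3 held an embryo far from the rest of its group by Dixon's criterion, where chance gives about 1 in 20. Tomm5 stood at 14.52 in Padi6-mutant 6, with the next mutant at 13.53. Tomm20 stood at 15.71 in the same embryo, with the next at 14.34. Tomm40l stood at 3.32 in Control 9, with the next Control at 5.81.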

How the results depend on the processing

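Whether the 9 numbers that mutant and Control libraries share pair them was not settled. Correlations of deviations between libraries of the same number ran from -0.072 to 0.152, with 1 of 9 over 0.1. Only 1 embryo pair (8) correlated best with its own number. Such low values cannot exclude a shared batch. With the replicate block, 10 import genes rose and 1 fell (Timm8a1, Tomm20 and Tomm22 were not called), 3 channel and receptor genes rose, 1 other import gene fell and 0 carriers rose. The median log2 fold change with the block was 0.68 in the import genes and -0.09 across all genes. Shares of all genes called are given above for the covariate, the sparse libraries and the length trends, but not for the block or the other alternatives. With the detected-gene covariate 0 import genes fell, 2 channel and receptor genes and 7 other import genes rose, 1 other import gene fell, 0 carriers passed in either direction, and Timm8a2 (-0.09), Tomm70a (-0.08) and Oxa1l (0.15) changed sign. Without the 4 sparse libraries 2 channel and receptor genes rose and 0 carriers passed. Only 20 import genes lay above the median level, as Timm10b, Timm8a2, Tomm20l, Tomm40l and Tomm34 were left out by that limit. Of these 20 genes 0 fell, a count that could not include Tomm34, the single lower gene. The small TIMM minus channel difference was 1.23, taken over the genes that remained. Quantile normalization left 0 carriers higher and Tomm70a at -0.06, and a pseudocount of 10 put Padi6 at 0.07. With the transcript length trend removed, 3 small TIMM genes rose, 1 other import gene fell, 0 carriers rose, the small TIMM minus channel difference was 0.02, and signs changed for Timm10b (-0.13), Timm8a2 (-0.64), Timm9 (-0.25), Timm23 (-0.03), Oxa1l (0.03) and Padi6 (0.22). With the coding length trend removed, 6 import genes rose and 6 fell, 3 small TIMM genes rose and 3 fell, 1 channel and receptor gene rose and 2 fell, 2 carriers fell, and the difference was -0.24. Signs then changed for Timm10b (-0.44), Timm8a1 (-0.81), Timm8a2 (-1.34), Timm9 (-0.74), Tomm5 (-0.23), Tomm20 (-0.07), Tomm22 (-0.40), Timm22 (-0.43), Timm44 (0.11), Chchd4 (-0.66, called lower at adjusted p = 0.00194), Oxa1l (0.05) and Padi6 (0.35). The cause was not tested. Leaving out 1 library gave 12 to 14 import genes higher and 1 to 3 lower, 0 to 2 channel and receptor genes lower, 1 to 4 other import genes lower and 1 to 2 carriers lower, with Timm8a2 from -0.08 to 0.36, Timm21 from -0.21 to 0.07 and Padi6 from -0.39 to 0.52. Depth per library is unknown, which limits low genes such as Tomm20l most.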
